A study of Homo sapiens with 6 samples.

Results

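Metallothioneins are small cysteine-rich proteins that hold zinc and copper ions and also bind cadmium. The genes described here are 6 metallothioneins of the MT1 and MT2 groups (MT1E, MT1F, MT1G, MT1M, MT1X and MT2A), the brain-type metallothionein MT3, the zinc-sensing transcription factor gene MTF1 and the zinc exporter gene SLC30A1. They were chosen by name, with earlier results of these data known, and each of the 9 names matched 1 of the 44591 rows of the deposited count files. RNA came from A2780, a human ovarian cancer cell line labelled as wild type, grown in DMEM with 10% fetal bovine serum. There were 3 untreated libraries and 3 from cells given r-CRMP2, the recombinant human form of collapsin response mediator protein 2, at 40 ng/ml for 48 h, and no vehicle or control protein is named for the untreated cells. The labels give 48 h for the untreated libraries as well. Nothing in the labels says whether the replicates came from separate cultures, so the p-values measure the spread between these 6 libraries, which may be technical.

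When free zinc rises in a cell, the zinc fingers of MTF1 take up the metal, and the factor enters the nucleus and binds metal response elements in the promoters of metallothionein genes and of SLC30A1. The metallothioneins then buffer the metal in the cytosol, and the SLC30A1 protein, ZnT1, moves zinc out across the plasma membrane. Glucocorticoids, oxidants and low oxygen are further known inducers of metallothionein genes in many cell types. In human cells most of these genes lie side by side on chromosome 16, where pseudogenes are mixed with working copies.

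Polyadenylated RNA was sequenced, and between 21888530 and 25711353 reads were counted per library. Levels are given as CPM, the count scaled to a common library size with TMM factors. Fold changes and their adjusted p-values come from the quasi-likelihood test of edgeR, with Benjamini-Hochberg adjustment over the 16222 genes that passed the filter on low counts. At an adjusted p threshold of 0.05, 4574 genes (28.2%) were higher and 4875 (30.1%) lower with r-CRMP2, so a call in either direction was common. When libraries were scaled by their size alone, without TMM factors, the calls were 2171 higher and 8449 lower, and the median log2 fold change of all genes tested moved from -0.03 to -0.34. The library of r-CRMP2 replicate 3 had a count for 22438 genes, against 25152 to 26302 in the other 5, and mitochondrial rows took 3.76% to 4.10% of the counts in r-CRMP2 libraries and 6.19% to 6.59% in untreated ones. Of 7 ovarian epithelial markers, KRT8 and KRT18 were the most abundant, with at least 25734 counts per library each, and WT1 had between 0 and 3. KRT18 rose (log2 fold change 0.20), KRT7 (-0.21) and MUC16 (-0.36) fell, and KRT8, PAX8 and EPCAM did not pass the test. PAX8 and EPCAM were low, with means of 4.06 and 4.44 CPM in untreated and 3.74 and 5.53 CPM in r-CRMP2 libraries. With library size alone, 0 of the 6 tested epithelial markers rose and 4 fell. The summed level of 10 fibroblast markers was 590.0 to 661 CPM in untreated and 522 to 545 CPM in r-CRMP2 libraries, a difference carried by COL1A1, while 4 of the 9 tested markers rose (COL1A2, LUM, PDGFRA and THY1), 2 fell and the median log2 fold change was 0.206. With library size alone, 0 of these 9 fibroblast markers rose, 3 fell and the median was -0.104. Of 5 immune markers, CD68 had a log2 fold change of 1.69 and the other 4 had at most 15 counts in any library, with PTPRC at 0 to 4. The summed level of 3 endothelial markers was 6.28 to 7.02 CPM in untreated and 1.77 to 2.26 CPM in r-CRMP2 libraries. That difference was carried mostly by CDH5 (log2 fold change -1.96), while PECAM1 and VWF did not pass the test. The part of these differences in the results below was not tested.

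The metallothionein genes that A2780 cells expressed strongly were higher with r-CRMP2, and so was SLC30A1, whereas MTF1 was not called. Of the 9 genes, 7 passed the filter on low counts, and 5 of these 7 rose (MT1E, MT1G, MT1X, MT2A and SLC30A1). None fell, and MT1F and MTF1 did not pass the test. The background for a rise was 28.2% of all genes tested, and 5.12% of genes rose with a log2 fold change over 1, which all 5 risen genes did. For comparison, 8.86% of genes fell with a log2 fold change under -1. In these 5 genes every r-CRMP2 library was above every untreated one, as in 30.9% of all genes tested. The 7 genes had a median log2 fold change of 1.40, against -0.03 for all genes tested. Because the genes were chosen with earlier results of these data known, these contrasts with all genes are descriptions only. The 2 genes that were not tested, MT1M and MT3, had between 0 and 2 counts in every library. In bulk RNA, more transcript per cell and a larger share of cells expressing a gene cannot be told apart.

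**Figure D1:**
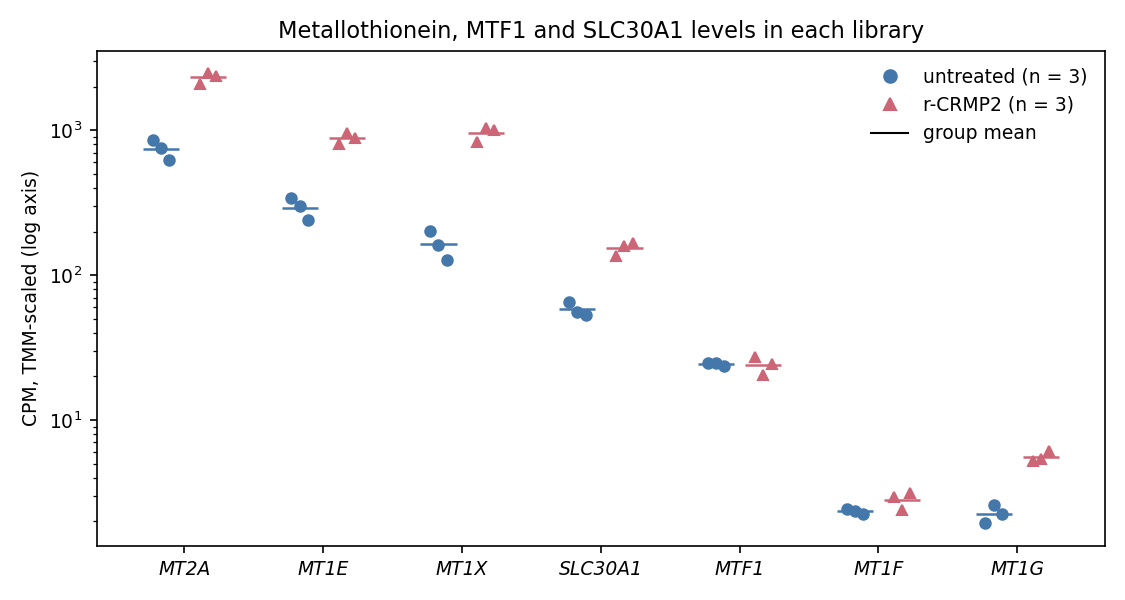
Level of the 7 genes that passed the filter on low counts, in CPM on a log axis, with 1 point per library (circles, untreated; triangles, r-CRMP2) and a line at each group mean. For MT2A, MT1E, MT1X, SLC30A1 and MT1G all 3 r-CRMP2 libraries lie above all 3 untreated libraries, and for MTF1 and MT1F the groups overlap.

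MT2A, which encodes the main metallothionein of many human tissues (chr16:56642478-56643409 in hg19, plus strand), was the most abundant of the genes in every library. It stood at 860.1, 752 and 622 CPM in untreated replicates 1, 2 and 3 and at 2093, 2478 and 2381 CPM in r-CRMP2 replicates 1, 2 and 3. The lowest treated library was thus far above the highest untreated one. The mean went from 745 ± 119 to 2318 ± 200.1 CPM (SD, n = 3 per group), with a log2 fold change of 1.64 (standard error, SE, 0.15, edgeR adjusted p = 4.39e-11). On the TPM scale, which is corrected for gene length so that levels of different genes can be set side by side, MT2A ranked 17, 23 and 31 among all rows in the untreated libraries. Its ranks were 5, 3 and 3 in the r-CRMP2 libraries.

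MT1X, a member of the MT1 group, had the largest change (chr16:56716382-56718108 in hg19, plus strand). Its level was 203, 162 and 127 CPM in untreated replicates 1, 2 and 3 and 834, 1041 and 1005 CPM in r-CRMP2 replicates 1, 2 and 3, with no overlap. The mean rose from 164 ± 37.9 to 960.0 ± 111 CPM (SD, n = 3 per group). The log2 fold change was 2.55 (SE 0.22, edgeR adjusted p = 3.40e-12), which was above that of 99.4% of all genes tested. MT1E, a second abundant MT1 gene (chr16:56659585-56661024 in hg19, plus strand), had 339, 299 and 242 CPM in untreated replicates 1, 2 and 3 and 807, 956 and 888 CPM in r-CRMP2 replicates 1, 2 and 3. These groups did not overlap either, and the log2 fold change was 1.59 (SE 0.16, edgeR adjusted p = 7.26e-11). On the TPM scale MT1E lay above MT1X in all 3 untreated libraries (1168 to 1606 against 772 to 1205 TPM). In all 3 r-CRMP2 libraries MT1X lay above MT1E (4178 to 4881 against 3227 to 3490 TPM). That order rests on the deposited lengths of 506 bases for MT1E and 404 for MT1X: with the GENCODE 29 transcripts of 332 and 450 bases, counts per base were higher for MT1E in 6 of 6 libraries.

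Among the untreated libraries, replicate 1 was the highest and replicate 3 the lowest for MT2A, MT1E, MT1X and SLC30A1. Among the r-CRMP2 libraries, replicate 1 was the lowest for all of these genes. Across the 6 libraries, which fall into the 2 groups compared, the log2 CPM values of MT1E, MT1X, MT2A and SLC30A1 had pairwise Pearson correlations of 0.994 or more, given here as a description. MTF1 had correlations between -0.17 and -0.15 with these 4 genes.

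MT1G and MT1F were weakly expressed copies. MT1G lies on the minus strand (chr16:56700647-56701977 in hg19) and had 54, 64 and 61 counts in untreated replicates 1, 2 and 3 and 111, 106 and 140 counts in r-CRMP2 replicates 1, 2 and 3. In CPM its mean rose from 2.26 ± 0.334 to 5.55 ± 0.480 (SD, n = 3 in each group) without overlap, a log2 fold change of 1.30 (SE 0.14, edgeR adjusted p = 4.23e-06). The log2 fold change of MT1G with library size alone was 0.99, just under 1. MT1F (chr16:56691855-56693215 in hg19, plus strand) was at 68, 58 and 61 counts in untreated replicates 1, 2 and 3 and at 63, 47 and 72 counts in r-CRMP2 replicates 1, 2 and 3. Its CPM values of 2.23 to 2.44 in untreated and 2.38 to 3.13 in r-CRMP2 libraries overlapped, and its log2 fold change was 0.27 (SE 0.12, edgeR adjusted p = 0.272), or -0.04 with library size alone. Both genes had about the same length-corrected level in untreated cells, 13.6 ± 2.20 TPM for MT1G and 11.8 ± 0.469 TPM for MT1F (SD, n = 3). With r-CRMP2 they stood at 26.7 ± 2.62 and 11.4 ± 2.01 TPM (SD, n = 3).

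MT1M (chr16:56666534-56667898 in hg19) had 1 count in r-CRMP2 replicate 1 and 0 in the other 5 libraries. MT3 (chr16:56623267-56625000 in hg19), the copy best known from neurons, had 1, 0 and 0 counts in untreated replicates 1, 2 and 3 and 2, 1 and 0 counts in r-CRMP2 replicates 1, 2 and 3. No fold change is given for either gene. The files listed 10 further metallothionein rows (MT1A, MT1B, MT1DP, MT1H, MT1HL1, MT1IP, MT1JP, MT1L, MT2P1 and MT4), none of which passed the filter, and none had more than 6 counts in a library. Of all 17 metallothionein rows, 5 were thus measurable in A2780 cells, and 3 of them were abundant.

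SLC30A1, the gene of the exporter ZnT1 on chromosome 1 (chr1:211748381-211752099 in hg19, minus strand), rose together with the metallothioneins. It was at 65.2, 56.0 and 52.9 CPM in untreated replicates 1, 2 and 3 and at 137, 158 and 166 CPM in r-CRMP2 replicates 1, 2 and 3. No treated library overlapped the untreated range. The mean went from 58.0 ± 6.38 to 154 ± 15.2 CPM (SD, n = 3 per group), with a log2 fold change of 1.40 (SE 0.12, edgeR adjusted p = 6.51e-11), and it was 1.09 with library size alone. The deposited length of SLC30A1 is 2018 bases, whereas its transcript in GENCODE 29 has 5474, so its TPM of 70.0 ± 6.76 in untreated and 148 ± 12.3 in r-CRMP2 libraries (SD, n = 3) depends on the annotation used.

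MTF1, the metal-sensing activator itself (chr1:38275239-38325292 in hg19, minus strand), had 24.9, 24.6 and 23.6 CPM in untreated replicates 1, 2 and 3. It had 27.3, 20.5 and 24.3 CPM in r-CRMP2 replicates 1, 2 and 3, values on both sides of the untreated ones. The log2 fold change was -0.02 (SE 0.12, edgeR adjusted p = 0.897). With library size alone MTF1 was called lower, with a log2 fold change of -0.32 (edgeR adjusted p = 0.0111), close to the shift of the median of all genes under that scaling. These are transcript levels, and the activity of MTF1 depends on bound zinc, which was not measured here.

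**Figure D2:**
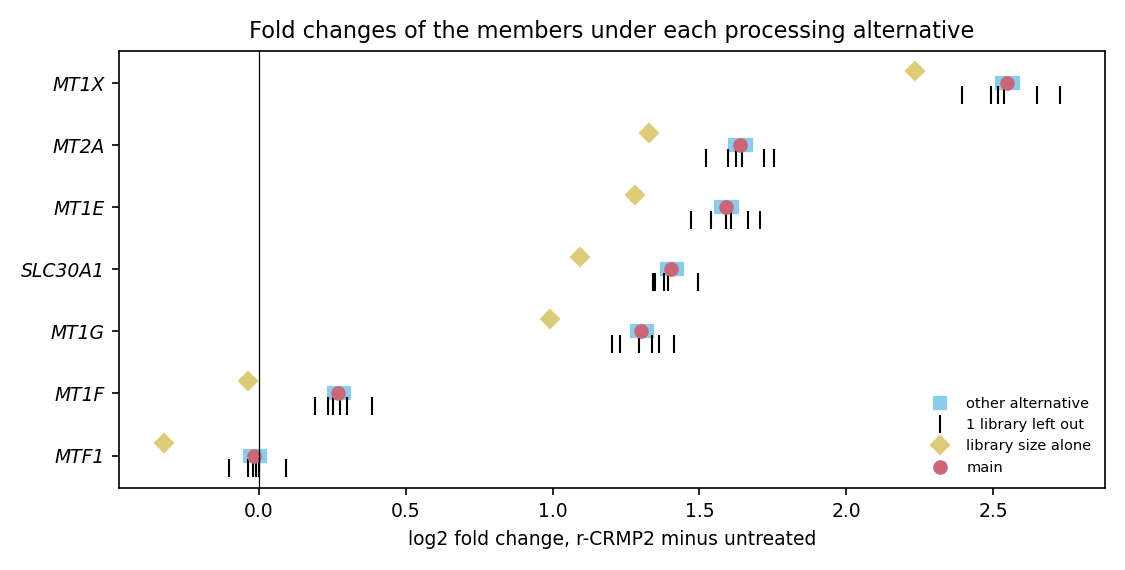
Log2 fold change (r-CRMP2 minus untreated) of the 7 tested genes as reported (circles) and under each processing alternative (ticks, 1 library left out; diamonds, library size alone; squares, all others). MT1X, MT2A, MT1E, SLC30A1 and MT1G stay at 0.99 or above throughout, whereas MT1F and MTF1 fall on both sides of 0.

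Because the MT1 and MT2 copies are similar in sequence, reads could be assigned to the wrong copy, and how the authors treated such reads is not given in the sources used here. In GENCODE 29 transcripts, 45.1% of the windows of 50 bases of MT1X also occurred in another gene, against 20.2% for MT1G, 7.52% for MT2A, 1.77% for MT1E and 0.27% for MT1F. The longest exact stretch shared by MT1X was 166 bases, with AC026461.1, and 17 of its 301 windows of 150 bases were shared. The study's methods give paired reads of 150 bases. The search took for each gene the protein-coding transcript nearest to its deposited length, which for MT1E has 332 bases against 506. Sequence outside these transcripts was not searched. For MT1E, MT1F, MT1G and MT2A no window of 150 bases was shared with another gene. Shorter stretches were shared, and the longest for MT1G was 96 bases, with MT1X. Whether reads of the far more abundant MT1X entered the low MT1G counts was not tested. No window of 50 bases of SLC30A1 was shared.

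The summed level of all 17 rows was 1407, 1219 and 996 CPM in untreated replicates 1, 2 and 3 and 3742, 4484 and 4283 CPM in r-CRMP2 replicates 1, 2 and 3. All treated libraries were above all untreated ones, and metallothionein reads took 0.112% to 0.154% of all counts in untreated and 0.344% to 0.394% in r-CRMP2 libraries. MT1E, MT1X and MT2A made up nearly all of this sum, since the other 14 rows held 0.185% to 0.481% of it. MT2A was the largest part in every library, with 61.1% to 62.5% of the sum in untreated and 55.3% to 55.9% in r-CRMP2 libraries, and MT1X took 12.8% to 14.4% and 22.3% to 23.5%.

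**Figure D3:**
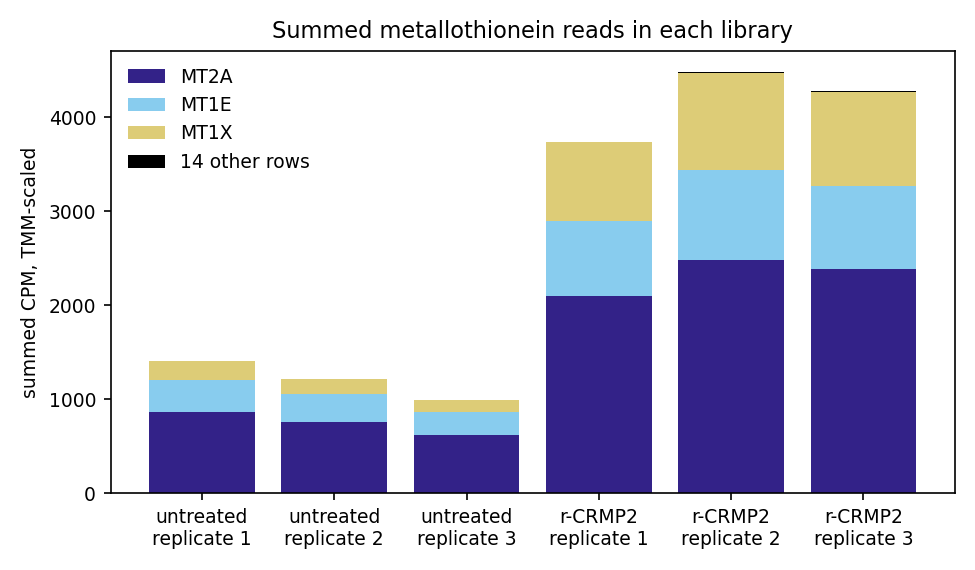
Summed CPM of all 17 metallothionein rows in each library, with bar segments for MT2A, MT1E, MT1X and the other 14 rows, which are barely visible. The bars of the 3 r-CRMP2 libraries reach 3742 to 4484 CPM against 996 to 1407 CPM in the untreated ones, and the MT1X segment takes a larger share of them.

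MT1X gained on MT2A in every treated library. The ratio of MT1X to MT2A counts, which no scaling of the libraries can alter, was 0.236, 0.216 and 0.205 in untreated replicates 1, 2 and 3. It was 0.398, 0.420 and 0.422 in r-CRMP2 replicates 1, 2 and 3, with no overlap. The mean ratio went from 0.219 ± 0.0158 to 0.414 ± 0.0132 (SD, n = 3 in each group; exact two-sided permutation test p = 0.1, the smallest p that 3 against 3 libraries allow). Both ratios here were picked with the values in view. The ratio of MT1E to MT2A was 0.388 to 0.398 in untreated and 0.373 to 0.386 in r-CRMP2 libraries, a far smaller shift (exact two-sided permutation test p = 0.1, again the smallest possible).

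Short transcripts can behave differently from long ones in a library, and the 5 measurable metallothioneins have deposited lengths of 404 to 506 bases. Of the 251 other tested genes in this length range, 71 rose (28.3%) and 36 (14.3%) rose with a log2 fold change over 1, against 28.2% and 5.12% of all genes tested. Their median log2 fold change was 0.20, and the part of transcript length in the rises was not tested.

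Promoter sequences bear on genes that move together, and RefSeq (GRCh38.p14) windows were found for 4 of the 9 genes: MT2A, MT1X, SLC30A1 and MTF1. The 250 bases before the annotated start are shown 5′ to 3′ on the gene's own strand, in lower case, with matches to the core of the metal response element (TGCACNC or TGCGCNC, either strand) in capitals. The first 3 genes rose and the fourth is their known activator, which did not.
MT2A (chr16:56608334-56608583, GRCh38.p14, plus strand): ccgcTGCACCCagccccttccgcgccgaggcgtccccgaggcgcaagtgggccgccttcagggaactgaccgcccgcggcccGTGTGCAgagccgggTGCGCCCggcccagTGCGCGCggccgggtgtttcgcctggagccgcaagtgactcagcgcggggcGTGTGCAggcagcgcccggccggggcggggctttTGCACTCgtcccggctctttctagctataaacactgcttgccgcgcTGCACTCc
MT1X (chr16:56682220-56682469, GRCh38.p14, plus strand): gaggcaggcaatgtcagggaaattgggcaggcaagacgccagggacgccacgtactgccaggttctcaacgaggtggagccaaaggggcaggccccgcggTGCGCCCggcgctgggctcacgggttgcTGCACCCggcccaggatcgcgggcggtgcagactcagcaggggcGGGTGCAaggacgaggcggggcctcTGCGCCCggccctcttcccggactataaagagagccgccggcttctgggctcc
SLC30A1 (chr1:211579162-211579411, GRCh38.p14, minus strand): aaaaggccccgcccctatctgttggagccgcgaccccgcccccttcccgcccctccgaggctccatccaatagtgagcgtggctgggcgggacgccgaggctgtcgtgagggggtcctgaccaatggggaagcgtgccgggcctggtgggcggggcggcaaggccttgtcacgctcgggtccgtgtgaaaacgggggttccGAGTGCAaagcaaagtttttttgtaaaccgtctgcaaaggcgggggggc
MTF1 (chr1:37859593-37859842, GRCh38.p14, minus strand): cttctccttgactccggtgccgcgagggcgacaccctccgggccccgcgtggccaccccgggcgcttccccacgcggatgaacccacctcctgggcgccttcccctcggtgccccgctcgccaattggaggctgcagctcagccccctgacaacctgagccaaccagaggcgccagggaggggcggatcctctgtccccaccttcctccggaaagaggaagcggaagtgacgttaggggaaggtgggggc

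The MT2A window held 7 matches to the core, MT1X held 4 and SLC30A1 held 1, between 43 and 49 bases upstream of the start. The MTF1 window held 0, which says only that these letters are not in it. Of 35093 windows of the same length, 24.8% held at least 1 match and 0.368% held 4 or more. MT1H and MT1B, which had at most 2 counts in any library, held 8 and 3 matches, so matches were also found before copies that were not detectable in these cells. A match to ACGTG, the core of the hypoxia response element on either strand, was found once in the MT1X window and in 18.5% of all windows. The glucocorticoid response element, searched by its palindromic consensus, had no match in the 4 windows and was found in 0.328% of all windows. Only 250 bases were searched, so an element farther upstream would be missed, and its absence from these promoters cannot be read from this. Matches describe the letters and do not show binding.

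The metallothionein rows on chromosome 16 span 119148 bases in the deposited coordinates, and 33 other rows lie within 500000 bases of this cluster. Of these, 15 were tested, 5 rose and 3 fell, and their median log2 fold change was 0.10. Under library size alone, 1 rose and 7 fell, against 2171 and 8449 of all 16222 genes tested. Across all genes tested, 28.2% rose and 30.1% fell with TMM factors. The nearest tested gene on one side, BBS2, which encodes a subunit of the cilium-transport complex BBSome, had a log2 fold change of 0.23 (edgeR adjusted p = 0.00917), or -0.08 with library size alone. On the other side, NUP93, a gene of the nuclear pore, had 85.9–96.8 CPM in untreated and 91.0–93.7 CPM in r-CRMP2 libraries (log2 fold change 0.02, edgeR adjusted p = 0.796). BBS2 and NUP93 were picked after their values were seen. Farther out, ENSG00000260145.1 (2.12) and SLC12A3 (-1.41), the gene of a kidney salt transporter, had the largest log2 fold changes, at 0.122 to 1.62 CPM. NLRC5, a regulator of MHC class I genes, fell by 0.59 on the log2 scale.

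**Figure D4:**
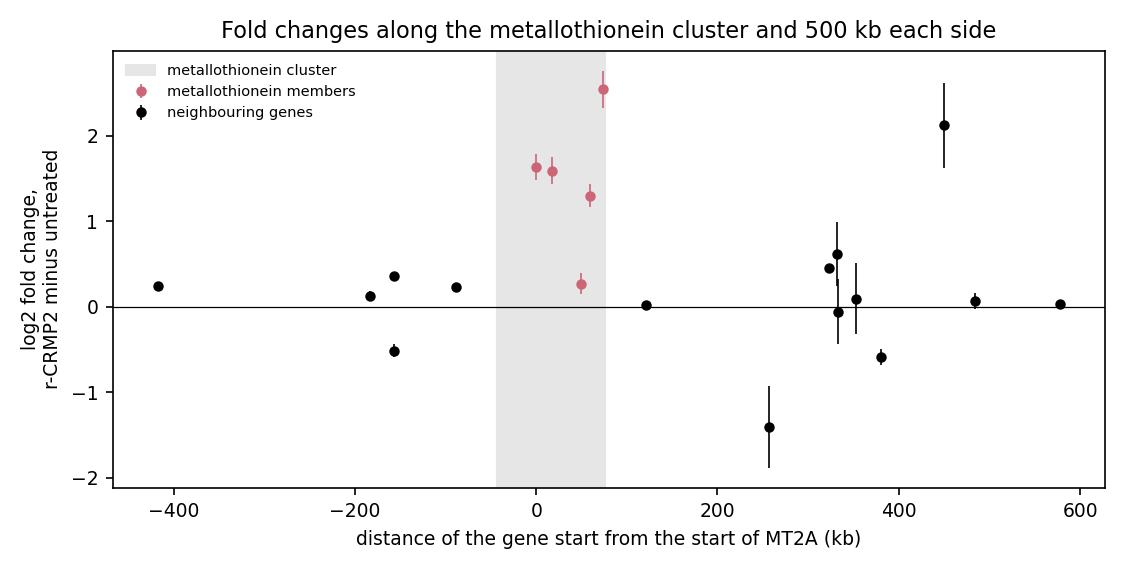
Log2 fold change (r-CRMP2 minus untreated, bars are standard errors) of the 5 tested metallothioneins and 15 neighbouring genes against the distance of each gene's start from the start of MT2A in kb, with the cluster shaded. MT2A, MT1E, MT1G and MT1X lie between 1.30 and 2.55, MT1F at 0.27, and 13 of the 15 neighbours between -0.59 and 0.62.

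SLC30A1 was compared with the other zinc exporters of its family, which mostly load zinc into organelles and vesicles. Of 9 further SLC30A genes, 6 were tested, of which SLC30A3 rose and 4 fell, against 28.2% and 30.1% of all genes tested. The median log2 fold change of the 6 was -0.32, and it was -0.03 for all genes tested. The largest fall was in SLC30A6, a partner of SLC30A5 in the secretory pathway, which had 20.4–21.9 CPM in untreated libraries and 9.41, 9.10 and 8.27 CPM in r-CRMP2 replicates 1, 2 and 3. Its log2 fold change was -1.24 (SE 0.06, edgeR adjusted p = 3.63e-09), and its groups did not overlap. SLC30A7, which serves the Golgi, had a log2 fold change of -0.46 (edgeR adjusted p = 0.000319) and SLC30A4 had -0.46 (edgeR adjusted p = 0.0449), the latter lost in 8 of the 12 alternatives. SLC30A10, a manganese exporter, had at most 2 counts in a library. None of the 6 was higher and 5 were lower with library size alone, against 2171 higher and 8449 lower of all 16222 genes tested.

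The zinc importers of the SLC39A family bring zinc into the cytosol from outside or from organelles. Of 14 genes, 10 were tested, and 4 rose and 3 fell, against 28.2% and 30.1% of all genes tested. The median log2 fold change of the 10 was 0.08. With library size alone 1 rose and 6 fell, against 2171 and 8449 of all 16222 genes tested. The calls in this family thus shifted with the scaling as calls over all genes did. SLC39A14, which carries zinc, iron and manganese, rose from 170.4–192 CPM in untreated to 264–283 CPM in r-CRMP2 libraries (log2 fold change 0.59, SE 0.06, edgeR adjusted p = 2.22e-07), and the value was 0.28 with library size alone. SLC39A7, which releases zinc from the endoplasmic reticulum, had a log2 fold change of 0.44 (edgeR adjusted p = 1.21e-05), which was 0.13 and not called with library size alone. SLC39A11 fell by 0.73 on the log2 scale (edgeR adjusted p = 3.94e-05). SLC39A10, an importer known to be repressed through MTF1, had a log2 fold change of -0.23 (SE 0.11, edgeR adjusted p = 0.0199), with 56.9–63.7 CPM in untreated and 44.9–56.7 CPM in r-CRMP2 libraries. That call was lost without untreated replicate 1, untreated replicate 3 or r-CRMP2 replicate 2, where the values were -0.22, -0.20 and -0.13.

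Of 5 genes linked to MTF1 besides the members, 2 rose (PGF and SELENOH), SLC39A10 fell, and GCLC and SELENOW did not pass the test. Across all genes tested, 28.2% rose and 30.1% fell. PGF, which encodes placental growth factor, had 32.2, 25.1 and 24.2 CPM in untreated replicates 1, 2 and 3 and 43.4, 42.0 and 45.1 CPM in r-CRMP2 replicates 1, 2 and 3. This was a log2 fold change of 0.68 (SE 0.13, edgeR adjusted p = 4.50e-06). SELENOH, a nuclear selenoprotein gene, had a log2 fold change of 0.65 (SE 0.15, edgeR adjusted p = 1.46e-05).

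Of 9 genes known to respond to glucocorticoids, as MT2A and MT1X do, 8 were tested and 6 rose, against 28.2% of all genes tested. The median log2 fold change of the 8 was 1.34. This list, too, was chosen with earlier results of these data known, so the contrast is a description only. The rises included ERRFI1, an inhibitor of the EGF receptor, with 85.7 to 102 CPM in untreated and 668 to 788 CPM in r-CRMP2 libraries (log2 fold change 2.98, edgeR adjusted p = 2.92e-15). PER1, a circadian repressor, and DUSP1, a MAP kinase phosphatase, had log2 fold changes of 2.31 (edgeR adjusted p = 2.32e-13) and 1.84 (edgeR adjusted p = 3.19e-11). The other 3 that rose were TSC22D3, KLF9 and CEBPD, of which CEBPD had a log2 fold change of only 0.20 (edgeR adjusted p = 0.0342), or -0.11 and not called with library size alone. The count of 6 was 5 without any 1 of the 3 untreated libraries, r-CRMP2 replicate 2 or r-CRMP2 replicate 3. FKBP5, a cochaperone of the receptor, and SGK1, a kinase, had log2 fold changes of -0.19 and 0.02 that did not pass the test. Members of this list respond to other signals as well, and with library size alone 5 rose and 2 fell. Of all 16222 genes tested, 2171 rose and 8449 fell under that scaling.

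**Figure D5:**
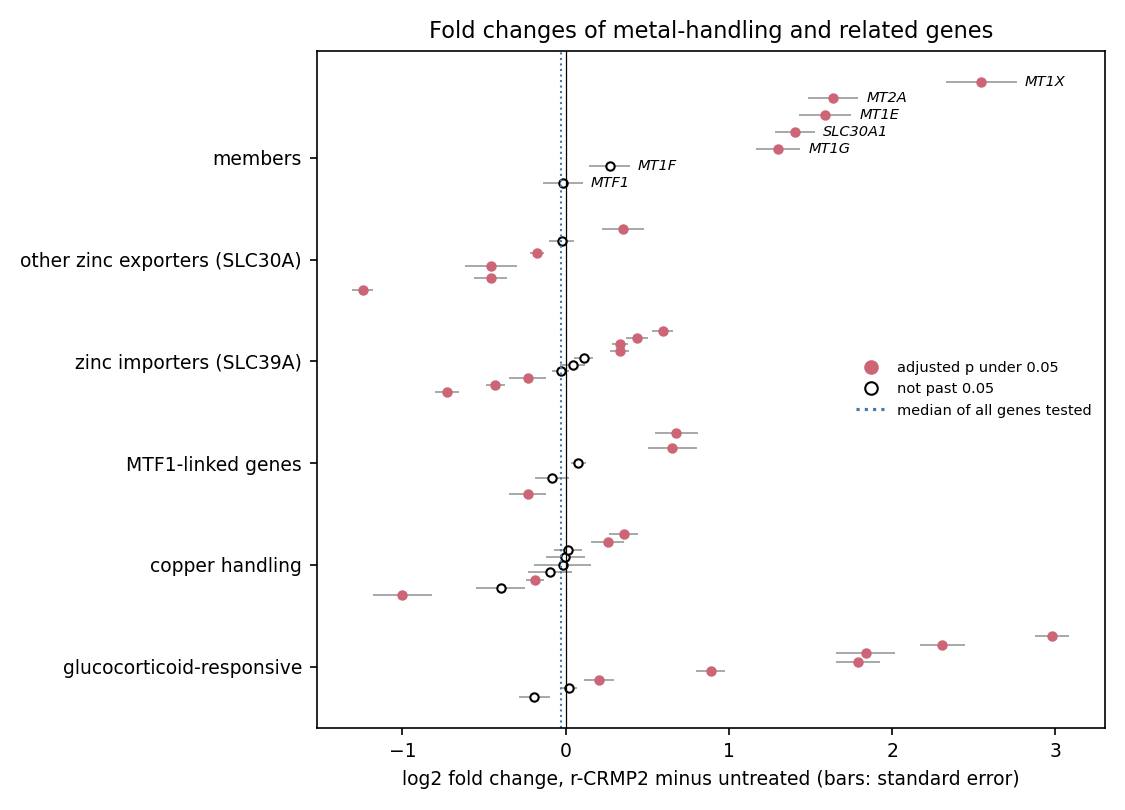
Log2 fold change (r-CRMP2 minus untreated, bars are standard errors) of each tested gene in 6 lists, filled where the adjusted p was under 0.05 and open otherwise, with a dotted line at the median of all genes tested. MT1X, MT2A, MT1E, SLC30A1 and MT1G lie at 1.30 or above, whereas the other zinc exporters and the importers lie between -1.24 and 0.59.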

How the data were processed

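Raw counts per gene and TPM values were deposited by the authors, 1 file per library. The submitters' processing notes name FastQC, HISAT2, DESeq2 and the build hg19. The counting tool, the annotation, strand use and the treatment of reads matching several genes are not given in the sources used here. Recomputing TPM from the counts and the lengths in the files gave differences of at most 4.72e-06. TPM was used to compare levels between genes and was not tested between the groups. It is not TMM-scaled, so a shift between the groups in TPM can differ from that in CPM, as for MT1F.

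Counts were filtered and TMM-scaled, and the 3 r-CRMP2 and 3 untreated libraries were tested on all genes by the quasi-likelihood method of edgeR (version 4.0.16, run in R 4.3.3 beside limma 3.58.1), with Benjamini-Hochberg adjustment and a threshold of 0.05. The test was checked on simulated counts in which a small set of genes changed, balanced between the directions. That check does not cover the choice of scaling where calls are as common as here. Standard errors come from the spread of log2 CPM (prior count 2) within groups. Alternatives were DESeq2 (1.42.0), RLE factors, library size alone, 2 other filters, a replicate block and leaving out each library.

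The members and lists were chosen with earlier results of these data known. Named were all members, up to 3 genes per list past the threshold with the largest change, SLC39A10 and SLC30A10, and the 3 genes most like MT2A and SLC30A1; other genes that a short count names were added after their values were seen.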

Additional observations from a re-analysis of the deposited data

How the results depend on the processing

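The rises of MT1E, MT1G, MT1X, MT2A and SLC30A1 were called under all 12 alternatives run, and 5 members were higher throughout. With library size alone 1 member was lower (MTF1), and the log2 difference of the summed metallothionein rows was 1.49 instead of 1.80. Without 1 library each, the log2 fold changes of MT1X and MT1G ranged from 2.39 to 2.73 and from 1.2 to 1.41. MT1F, not called, was -0.039 with library size alone. MTF1 was 0.0038 with RLE factors, 0.0033 with DESeq2, -0.32 and called with library size alone, and -0.10 to 0.093 without 1 library each. Some genes outside the members turned sign without being called there: COX17 (-0.055) and BBS2 (-0.081) with library size alone, and NUP93 without 1 library each (-0.018 to 0.068). NUP93 was also lower with library size alone (-0.29), where it was called. Counts of lists were recomputed after the values were seen. With library size alone the higher and lower counts were 0 and 5 for zinc exporters, 1 and 6 for importers, 0 and 6 for copper handling, 2 and 3 for MTF1-linked genes, 5 and 2 for glucocorticoid-responsive genes and 1 and 7 for neighbours of the cluster. For all 16222 genes tested they were 2171 and 8449 under that scaling. Lower exporters numbered 2 with RLE factors and 2 with DESeq2. Higher copper genes numbered 1 with DESeq2, 1 without a low-count filter, 1 with at least 10 counts in every sample and 1 with the replicate block. Lower glucocorticoid-responsive genes numbered 1 with at least 10 counts in every sample. Without 1 library each, the exporters higher ranged from 0 to 1 and lower from 2 to 4, the copper genes higher from 1 to 2 and lower from 1 to 3, the MTF1-linked genes lower from 0 to 1 and the glucocorticoid-responsive genes lower from 0 to 1. The causes were not tested, beyond the shift of all fold changes that library size alone brings. The replicate number as a block left 5 members higher and 0 lower, with 1.65 for MT2A. Among the genes named outside the cell type markers, the block ended the call of COX17 alone. Of the fibroblast markers, 3 instead of 4 were higher with the block. Deviations of same-numbered libraries had correlations of -0.02, 0.0038 and -0.03. No shared deviation by number was thus seen, which does not exclude that same-numbered libraries were handled together. MT1M, MT3 and the further metallothionein rows were too low for any statement.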

Other observations

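Metallothioneins also bind copper, and 9 copper-handling genes were tested. Of these, 2 rose and 2 fell, against 28.2% and 30.1% of all genes tested. ATP7B, a copper-exporting ATPase, went from 5.68, 4.69 and 5.78 CPM in untreated replicates 1, 2 and 3 to 3.18, 2.17 and 2.70 CPM in r-CRMP2 replicates 1, 2 and 3, with no overlap. Its log2 fold change was -1.0 (SE 0.18, edgeR adjusted p = 0.000102). SOD1, the copper-zinc superoxide dismutase, fell by 0.19 on the log2 scale. SLC31A1, the main copper importer, rose by a log2 fold change of 0.36 (edgeR adjusted p = 0.000342), which was 0.05 and not called with library size alone. COX17, a mitochondrial copper chaperone, had a log2 fold change of 0.26 (edgeR adjusted p = 0.048), a call lost in 10 of the 12 alternatives. ATP7A, ATOX1, CCS, COMMD1 and SLC31A2 did not pass the test.

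Among genes with a mean log2 CPM of at least 3, those with the highest Pearson correlation to MT2A over the 6 libraries were MT1X (0.9998), MT1E (0.9997) and NGLY1 (0.9996), the gene of an enzyme that removes N-linked sugars. The genes most like SLC30A1 were GS1-124K5.11 (0.9998), SEMA7A (0.9997), which encodes a membrane-bound semaphorin, and MKNK2 (0.9996), a kinase gene. The log2 fold changes of NGLY1, SEMA7A and MKNK2 were 0.98, 1.57 and 1.25. All 6 libraries fall into the 2 groups compared, so these correlations mostly follow the group difference.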
